A study of Mus musculus with 6 samples.

Results

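Vascular smooth muscle cells of the artery wall can deposit calcium phosphate, and a small set of secreted proteins, transporters and enzymes holds this mineral in check or feeds it. Of 10 regulators of arterial calcification looked for by gene symbol in 6 RNA-seq tables (Spp1, Mgp, Slc20a1, Slc20a2, Enpp1, Ank, Alpl, Tnfrsf11b, Ahsg and Sp7), 6 were present among the 7384 genes listed: Mgp, Spp1, Slc20a1, Slc20a2, Enpp1 and Ahsg. The other 4 (Ank, Alpl, Tnfrsf11b and Sp7) were not analysed here. The samples were cultures of smooth muscle cells grown from mouse aorta. In 3 of them (siSirt6) a small interfering RNA against Sirt6, a NAD-dependent deacylase, had been applied for 48 h, and 3 were labelled Control. The labels used here do not give mouse strain, age or sex, the number of animals behind the cultures, or what the Control cultures received. No label says that the 3 samples of a group came from separate cultures, so the p-values measure only the spread between these samples, which may be technical.

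Mineral formation in the artery wall depends on the balance of inorganic phosphate, which promotes it, and pyrophosphate, which blocks crystal growth. Phosphate enters smooth muscle cells through the sodium-dependent transporters encoded by Slc20a1 (PiT-1) and Slc20a2 (PiT-2). Enpp1 encodes the ectoenzyme that makes pyrophosphate from extracellular ATP. Mgp encodes matrix Gla protein, which needs vitamin K-dependent carboxylation to bind calcium, and mice without it calcify their arteries. Spp1 encodes osteopontin, a phosphorylated matrix protein that binds mineral, integrins and CD44, and Ahsg encodes fetuin-A, a serum protein made mainly by the liver that keeps calcium phosphate in solution.

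The promoters of 3 of these genes are shown. Only these 3 regulators had sequence outside the annotated gene in the RefSeq promoter set used here. They are the abundant osteopontin gene, a phosphate importer gene and the gene with the largest change. Each run is the RefSeq sequence (GRCm38.p6) upstream of the gene's first start site, 5′ to 3′ on the gene's strand, ending before the gene's annotated start. The positions are chr5:104434861-104435110 (plus strand) for Spp1, chr2:129198523-129198763 (plus strand) for Slc20a1 and chr10:24712160-24712409 (minus strand) for Enpp1. Capitals mark matches, on either strand, to the motifs searched.
Spp1: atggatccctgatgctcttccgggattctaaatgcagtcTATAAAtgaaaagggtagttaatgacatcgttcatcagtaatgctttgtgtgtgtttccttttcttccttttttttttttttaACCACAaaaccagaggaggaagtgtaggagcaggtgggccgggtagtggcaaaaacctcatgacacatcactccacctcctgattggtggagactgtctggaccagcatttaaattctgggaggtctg
Slc20a1: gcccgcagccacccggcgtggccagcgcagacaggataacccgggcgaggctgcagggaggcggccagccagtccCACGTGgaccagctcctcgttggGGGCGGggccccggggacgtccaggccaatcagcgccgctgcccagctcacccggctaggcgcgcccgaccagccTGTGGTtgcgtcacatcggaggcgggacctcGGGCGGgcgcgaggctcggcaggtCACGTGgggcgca
Enpp1: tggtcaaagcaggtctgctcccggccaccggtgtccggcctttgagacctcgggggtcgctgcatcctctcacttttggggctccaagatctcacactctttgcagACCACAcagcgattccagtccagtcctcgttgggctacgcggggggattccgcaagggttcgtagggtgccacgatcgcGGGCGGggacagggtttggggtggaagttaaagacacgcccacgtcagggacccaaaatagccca

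Across the 250 bases before a start site, 6 promoters of 4 regulators were in the RefSeq table, which lists 32851 such promoters. The 6 letters of the core RUNX motif, TGTGGT or its complement, occurred in 3 of the 6 (the 3 sequences shown) and in 14% of all promoters. A GC box, GGGCGG, was found in 3 of the 6 (both starts of Slc20a1 and the one of Enpp1) and in 32.7% of all promoters. The E-box CACGTG occurred in the first promoter of Slc20a1 and in 6.02% of all, and TATAAA in the first promoter of Spp1 and in 12.4% of all. TGANTCA, the AP-1 motif, and the NF-kB motif searched were not matched in these 6 windows, and were found in 6.75% and 0.356% of all promoters. No match in these windows overlapped a match to another motif. A match is a description of the sequence only.

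The tables give normalised read counts, in which a library's reads share a single scaling factor, and the listed genes took 14458847 to 14866718 reads in 5 libraries and 15526399 in siSirt6 replicate 1, whose step of 1 read an automatic check did not accept. They hold almost only genes that differ: of 7179 genes tested with limma, 99.8% passed a Benjamini-Hochberg adjusted p of 0.05, 50.5% higher in siSirt6 and 49.3% lower, so a call by itself says little about any gene. Sirt6 itself had 251.7, 257.0 and 270.4 in Control, against 44.5, 59.8 and 63.5 in siSirt6. Of the smooth muscle markers 6 of 8 were listed, 5 higher and 1 lower (Smtn, at 0.813 of Control), and their summed level, most of it Acta2, was 63721 to 63957 in Control and 102338 to 103408 in siSirt6; Myocd and Des were not analysed here. Endothelial markers (8 of 10 listed, all 8 higher, Cldn5 having reached the filter through siSirt6) summed to 987.5 to 1129 and 1806 to 1973. Adventitial fibroblast markers (8 of 8 listed, 3 higher and 5 lower) summed to 91304 to 92277 and 75843 to 77131, most of it Gsn. The mean of Gsn was 72100 in Control and 57433 in siSirt6, and the 3 higher markers were Ly6a, Dpt and Lum. In bulk samples, fewer cells of a type and less RNA per cell cannot be told apart, and the part of these markers in the results below was not tested.

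All 6 calcification regulators were tested, and all 6 were higher in siSirt6 at the 0.05 threshold, beside 50.5% of all tested genes. Mgp and Spp1, which encode matrix-bound inhibitors of mineral, rose by a factor of 1.41 and 1.31. The phosphate transporter gene Slc20a1 rose 1.39-fold and its relative Slc20a2 1.13-fold, Enpp1 2.09-fold and Ahsg 1.18-fold. These folds are ratios of group means of the deposited values. The median log2 fold change of the 6 was 0.43, against 0.08 over all tested genes, and 0.19 against -0.0049 with the length and GC trend removed. In each of the 6 the lowest siSirt6 library lay above the highest Control library, a separation that 49% of all tested genes showed in that direction and 96.8% in either. Once the trend of the libraries on transcript length and GC content was taken out, 5 of the 6 were still called higher (Ahsg was not), beside 37.3% of the 7130 tested genes with a known length.

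**Figure D1:**
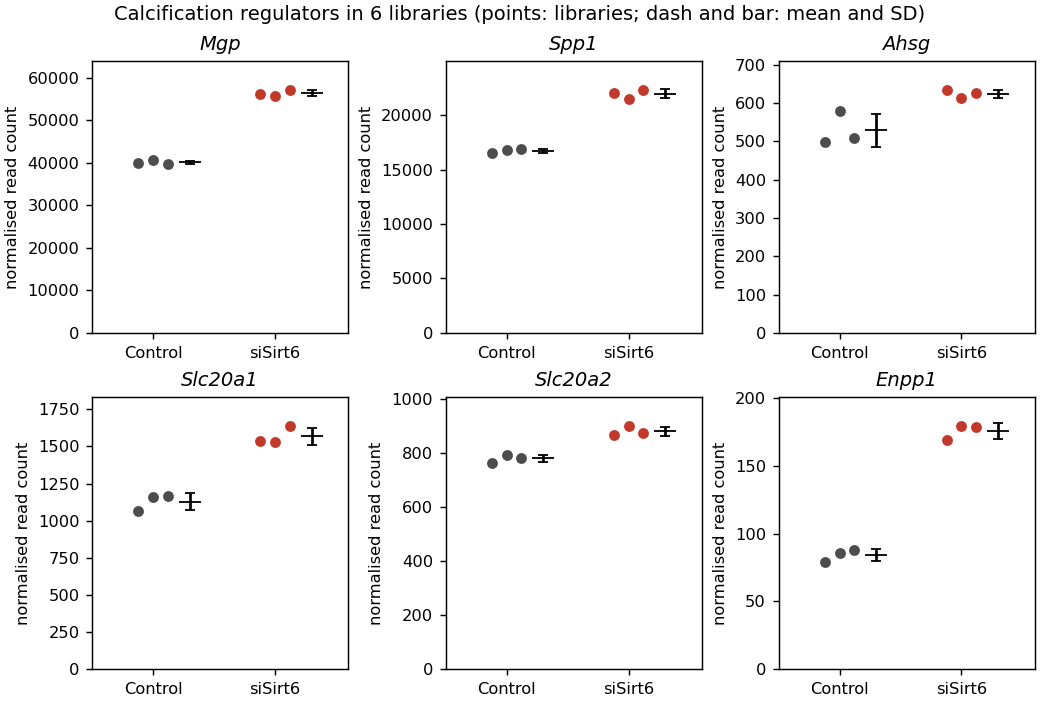
Normalised read count (y axis, from 0) of each regulator in the 3 Control and 3 siSirt6 libraries (x axis); points are libraries, dashes and bars the mean and SD. In every panel the siSirt6 points lie above the Control points, with the largest relative difference of means for Enpp1 (2.09-fold) and the smallest for Slc20a2 (1.13-fold).

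Among the secreted inhibitors, Mgp (chr6:136872435-136875823 on GRCm38, minus strand) was the most abundant. Its normalised read counts were 39903, 40566 and 39781 in Control, against 56177, 55785 and 57057 in siSirt6. The libraries of a group lay within a narrow band, with a coefficient of variation of 1.05% in Control and 1.16% in siSirt6, and the bands were far apart. On the log2(value + 1) scale the change was 0.49 (95% interval 0.46 to 0.52, limma adjusted p = 2.77e-25). Mgp has a short transcript of 715 nt, and short genes as a whole were higher in siSirt6: of 273 tested genes within a factor of 1.25 of its length, 89% were higher, with a median log2 fold change of 0.42. With the trend of each library on transcript length and GC content removed, the log2 fold change of Mgp was 0.08 (adjusted p = 1.09e-05). Its share of all listed values went from 0.285% ± 0.00295 to 0.368% ± 0.00597 (SD, n = 3).

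Spp1 (chr5:104435118-104441050, plus strand) stood at 16497, 16769 and 16915 in Control and at 22082, 21496 and 22300 in siSirt6. The groups did not overlap, and siSirt6 replicate 2 was the lowest of its group. Its log2 fold change was 0.39 (95% interval 0.36 to 0.43, limma adjusted p = 2.12e-19), and 22.4% of all tested genes rose at least as much. After removal of the length and GC trend it was 0.19 (adjusted p = 8.83e-12). Macrophages also express Spp1. Of 13 macrophage and leukocyte markers 4 were listed, C1qb, Lyz2 and Cd68 higher and Gpnmb lower, and their sum was 17420 to 17904 in Control and 15123 to 15448 in siSirt6, most of it Gpnmb. The rises of C1qb, Cd68 and Lyz2 were lost with listed totals (limma adjusted p = 0.0819, 0.0809 and 0.812), and with the trend removed the log2 fold changes were -0.07, 0.02 and -0.16, of which Lyz2 was called lower (adjusted p = 5.24e-04). The defining markers Ptprc, Adgre1 and Csf1r were not analysed here, and the part of such cells in the Spp1 result was not tested.

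Ahsg (chr16:22891277-22899449, plus strand) gave 498.6, 578.3 and 509.0 in Control and 633.8, 612.3 and 627.5 in siSirt6. Control replicate 2 was high in its group and lay close below the lowest siSirt6 library. The log2 fold change of 0.24 (95% interval 0.11 to 0.38, limma adjusted p = 0.00101) was lost with each library scaled to its listed total (0.12, adjusted p = 0.0735) and took the other sign with the length and GC trend removed (-0.04, adjusted p = 0.579). An antisense gene of the annotation, Gm30505, overlaps Ahsg. Gm42793 overlaps Spp1 on its own strand, and 9830144P21Rik and Gm4430 overlap Slc20a1 on the other strand. The kit was stranded, but the labels used here do not say whether counting used the strand.

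Of the phosphate importers, Slc20a1 (chr2:129198764-129211616, plus strand) had normalised read counts of 1065, 1157 and 1164 in Control and 1540, 1529 and 1636 in siSirt6. The groups were well apart, with Control replicate 1 lowest and siSirt6 replicate 3 highest. The log2 fold change was 0.47 (95% interval 0.38 to 0.57, limma adjusted p = 2.49e-11) and 0.51 after removal of the length and GC trend. Genes of its length (1922 within a factor of 1.25 of 3316 nt) were higher in 50.9% of cases, with a median of 0.08.

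Slc20a2 (chr8:22476788-22569612, plus strand) moved less, from 764.0, 792.5 and 782.3 in Control to 867.2, 898.9 and 873.1 in siSirt6. The groups were separate but close. Its log2 fold change was 0.17 (95% interval 0.07 to 0.28, limma adjusted p = 0.00232) and 0.18 after removal of the length and GC trend, but 0.06 with libraries scaled to their listed totals (adjusted p = 0.304). Slc20a2 is overlapped by the oppositely oriented Smim19 and by Gm17491 on its own strand.

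The ratio of Slc20a1 to Slc20a2 within a library was 1.39, 1.46 and 1.49 in Control and 1.78, 1.70 and 1.87 in siSirt6, so the balance between the importers moved toward Slc20a1 in each siSirt6 library. This ratio does not depend on how libraries are scaled. The mean went from 1.45 ± 0.0484 to 1.78 ± 0.0868 (SD, n = 3), with a 2-sided exact permutation p of 0.1, which is the smallest that 3 against 3 libraries can give. It was one of 3 ratios computed, and the adjusted p was 0.1 for each.

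Enpp1 (chr10:24637914-24712159, minus strand), the gene of an enzyme that makes extracellular pyrophosphate, was the scarcest of the 6 and changed the most. Its normalised read counts were 79.0, 85.7 and 87.9 in Control and 169.1, 179.4 and 179.0 in siSirt6. The groups lay far apart, with siSirt6 replicate 1 the lowest of its group. The log2 fold change was 1.05 (95% interval 0.79 to 1.32, limma adjusted p = 9.38e-09), a rise that 3.62% of all tested genes reached. Its longest transcript has 6777 nt, a length class that was mostly lower: of 1080 tested genes within a factor of 1.25 of that length, 20.8% were higher, with a median of -0.31. With the length and GC trend removed the log2 fold change of Enpp1 was 1.35 (adjusted p = 1.25e-11).

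**Figure D2:**
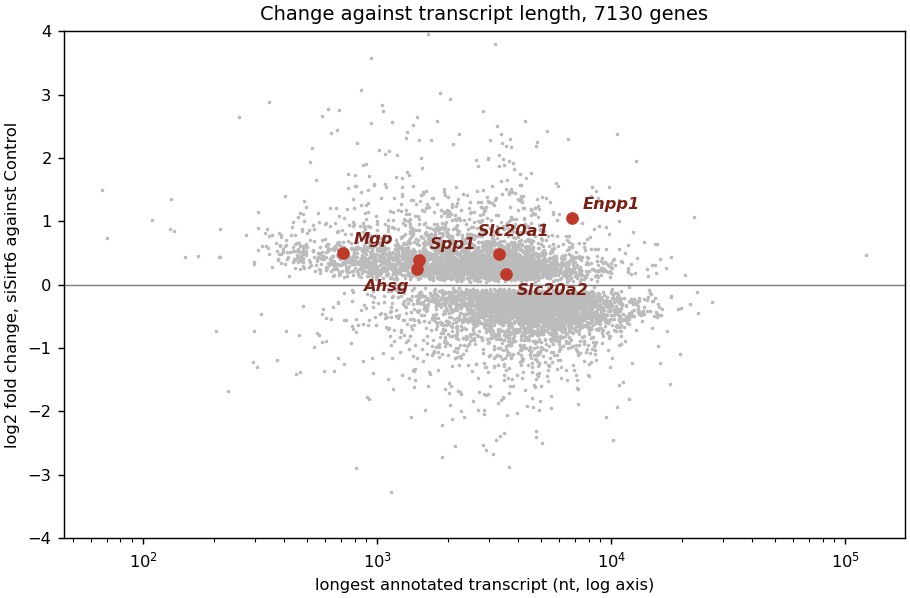
Log2 fold change of siSirt6 against Control (y axis) by the length of the longest annotated transcript (x axis, log scale) for the 7130 tested genes with a known length, in grey, and the 6 regulators, in red. Mgp, Spp1 and Ahsg lie among the short genes that were mostly higher, while Enpp1, at 6777 nt, lies above most genes of its length.

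The ratio of Enpp1 to Slc20a1 was 0.0742, 0.0741 and 0.0755 in Control and 0.11, 0.117 and 0.109 in siSirt6. Its mean rose from 0.0746 ± 7.90e-04 to 0.112 ± 0.00446 (SD, n = 3; exact permutation p = 0.1). The ratio of Mgp to Spp1 went from 2.4 ± 0.0387 to 2.57 ± 0.0264 (exact permutation p = 0.1), with no overlap between the groups. The Mgp and Spp1 transcripts differ in length, and after that trend was taken out the log2 fold change of Mgp was the smaller of the pair (0.08 against 0.19). Enpp1 and Slc20a1 kept their order on that removal (1.35 against 0.51).

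**Figure D3:**
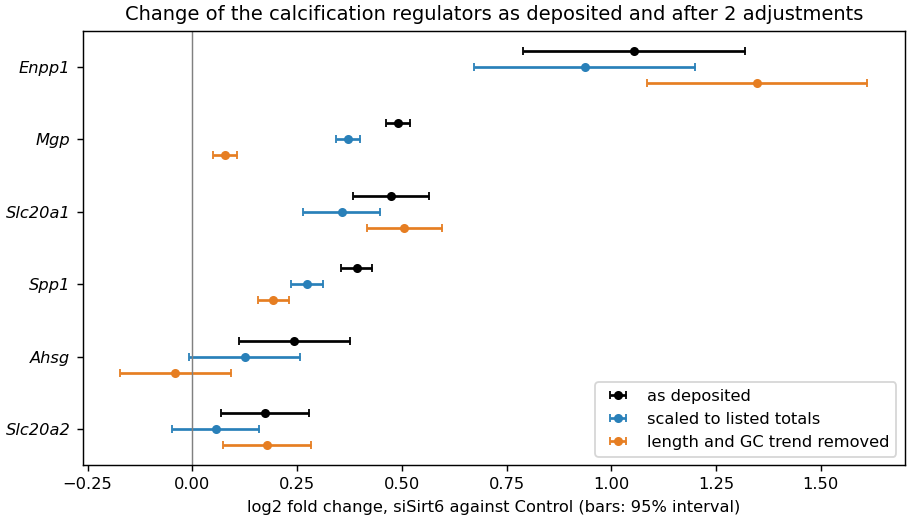
Log2 fold change (x axis) of each regulator (y axis) with its 95% interval, for the values as deposited, with libraries scaled to their listed totals, and after the length and GC trend was taken out. Enpp1 stays highest, near or above 0.94, under all 3, Mgp drops from 0.49 to 0.08 with the trend removed, and the intervals of Ahsg and Slc20a2 reach 0 under at least 1 adjustment.

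Levels were compared between genes per kilobase of the longest annotated transcript. In Control, Mgp stood at 56060 ± 590.4 normalised reads per kilobase (SD, n = 3), 6th among the 7331 genes with a length, and in siSirt6 at 78796 ± 911.0, the 3rd. Spp1 followed at 11100 ± 140.6 (78th) and 14572 ± 276.0 (76th). Ahsg at 356.2 ± 29.2 and Slc20a1 at 340.3 ± 16.7 did not differ beyond their spread in Control, whereas in siSirt6 Slc20a1, at 472.9 ± 17.8, lay above Ahsg at 420.9 ± 7.45. Slc20a2 came next at 218.6 ± 4.05 and 246.7 ± 4.73, and Enpp1 last at 12.4 ± 0.68 and 25.9 ± 0.861. Together the 6 genes took 0.421% ± 0.00435 of the listed values in Control and 0.533% ± 0.00942 in siSirt6, nearly all of it Mgp and Spp1.

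The genes with the most similar profiles were found by the distance between log2 values over the 6 libraries, each gene centred on its Control mean, among 6055 named genes with a mean of at least 100. This distance largely follows the siSirt6 change, so the like folds of the neighbours below were fixed by the choice. Nearest to Spp1 were Dynlt3 (0.0192), Zwint (0.0288) and Ap1s1 (0.0326), with folds of 1.32, 1.31 and 1.32. Nearest to Mgp were the collagen gene Col12a1 (0.0348), Got2 (0.0419) and Eif3g (0.042), and nearest to Slc20a1 were Mogs (0.039), Manba (0.0681) and Eif2b1 (0.0681). Near Slc20a2 lay Poldip2 (0.0294) and Calu (0.0332). Enpp1 had looser neighbours in Sema7a (0.113), Akr1b8 (0.129) and the transferrin receptor gene Tfrc (0.166), which rose 2.14-fold, 2.00-fold and 2.10-fold. Enpp1 was also the scarcest of the 6, with the largest SE of its log2 fold change (0.13), and what that adds to its distances was not tested. Ahsg lay nearest to Plcd3 (0.0803), Srpk1 (0.0804) and Timm9 (0.0817).

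The other genes of the calcification pathways were taken from 9 lists of 129 symbols, without the 10 regulators. Of these, 71 were tested, 27 higher and 44 lower in siSirt6, beside 50.5% and 49.3% of all tested genes, and their median log2 fold change was -0.20 against 0.08. The list medians were above that of all tested genes for osteopontin receptors and proteases (0.69), vesicle components (0.31) and carboxylation (0.17), and below 0 for the other 6 lists. The median of the bone and cartilage matrix list went from -0.21 to -0.01 with the trend removed. Of the 71, Mmp9, Itgb6 and Bmpr1b reached the filter on low values only through the group where they were high, which fixed their direction. The counts above include these genes, as do the medians of their lists (0.69 with Mmp9 and Itgb6, and -0.26 for the BMP list with Bmpr1b).

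**Figure D4:**
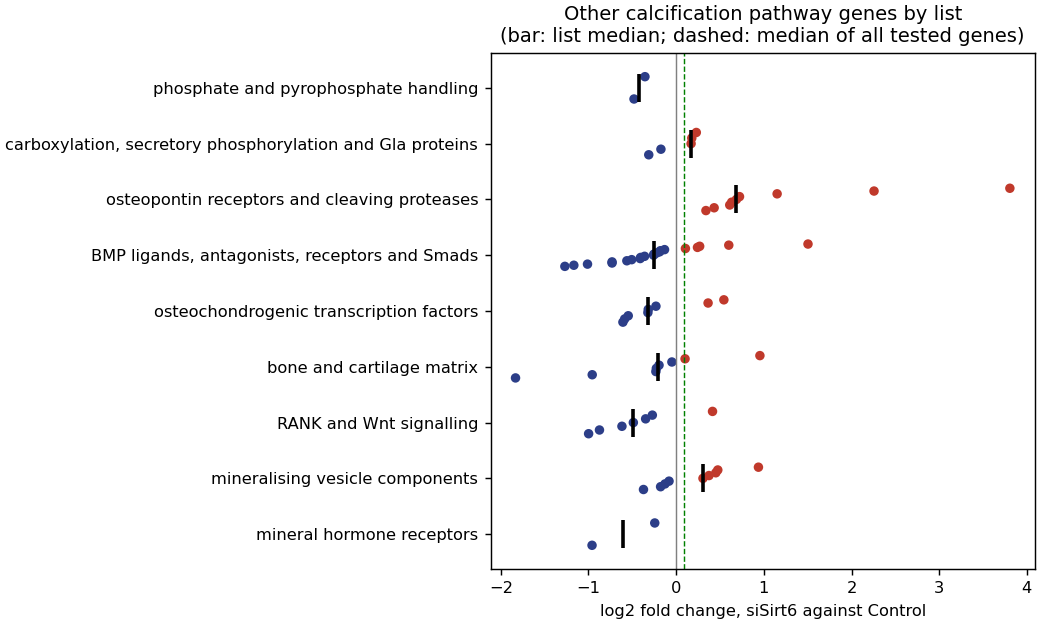
Log2 fold change (x axis) of each tested gene in the 9 pathway lists (y axis), without the 6 regulators; red points were higher and blue points lower in siSirt6, black bars are list medians and the dashed line is the median of all tested genes, 0.08. The osteopontin receptor and protease genes lie on the higher side, Mmp9 and Itgb6 among them by the filter. On the lower side lie 16 of 21 BMP genes, Bmpr1b among them by the filter, beside 49.3% of all tested genes.

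Osteopontin acts through integrins and CD44 and is cut by matrix metalloproteases. Of this list (16 symbols) 9 were tested. Mmp9 and Itgb6 had to be high in siSirt6 to be tested at all, and the other 7 were higher. Of all tested genes, 50.5% were called higher. Cd44 stood at 2048, 2078 and 2012 in Control and 4456, 4397 and 4793 in siSirt6, a log2 fold change of 1.15 ± 0.0328 SE (limma adjusted p = 2.31e-25). Itga5, the fibronectin receptor alpha chain, rose 1.65-fold, Itgb5 1.55-fold, and the stromelysin gene Mmp3 1.53-fold from 4170 ± 59.0 to 6371 ± 133.3 (SD, n = 3). Itgav, Itgb1 and Mmp12 were also higher. Mmp9 was at 1.95, 1.95 and 1.93 in Control and 47.5, 42.3 and 32.3 in siSirt6. The same 7 were also higher once the length and GC trend was taken out, beside 37.3% of the tested genes with a known length.

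In the phosphate and pyrophosphate list, the 2 further genes tested (of 9 symbols) were lower. Xpr1, the phosphate exporter, fell from 675.8 ± 37.8 to 527.5 ± 17.4 (SD, n = 3) and Entpd1, which degrades extracellular ATP, from 310.7 ± 24.9 to 222.1 ± 11.8. With the length and GC trend removed the log2 fold change of Xpr1 went from -0.36 to -0.03 and its call was lost (adjusted p = 0.633). Among genes of carboxylation, secretory phosphorylation and Gla proteins, 5 of 12 were tested, 3 higher and 2 lower. The shares of all tested genes were 50.5% higher and 49.3% lower. Gas6, another vitamin K-dependent protein, fell to 0.805 of its Control level of 29651 ± 240.5, and Furin to 0.886. Calu, whose product restrains the carboxylase, rose 1.13-fold, and Fam20c, the kinase of secreted phosphoproteins, 1.13-fold. Scaling to listed totals lowered the log2 fold change of Calu from 0.17 to 0.05 and ended the call of Fam20c (log2 0.06, adjusted p = 0.0978), and taking out the trend ended the call of Furin (-0.01, adjusted p = 0.791).

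Bone morphogenetic proteins drive osteogenic change in smooth muscle cells, and matrix Gla protein binds some of them. Of 28 symbols 21 were tested, 5 higher and 16 lower, beside 50.5% and 49.3% of all tested genes. The list median was -0.26. Bmpr1b, among the 16, had to be high in Control to be tested at all, and the count and median include it. The ligand gene Bmp4 fell from 1194, 1172 and 1150 in Control to 841.5, 811.3 and 820.1 in siSirt6, and Bmp2 and Bmp6 were lower too. Some of their antagonists fell as well: Grem1 stood at 5418, 5673 and 5681 in Control and 2522, 2436 and 2509 in siSirt6, a fall to 0.445, and Fst fell to 0.677. Bmper, a secreted BMP-binding protein, rose 1.52-fold. Of the downstream Id genes, Id3 rose 1.20-fold while Id1, Id2 and Id4 fell. The log2 fold change of Id3 turned from 0.27 to -0.08 with the length and GC trend removed, and that of Acvrl1, a receptor gene among the 5, from 0.11 to -0.01 with listed totals. The receptor genes Bmpr1a and Bmpr2 lost their calls with the trend removed (-0.06 and 0.08, adjusted p = 0.252 and 0.245).

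Transcription factors of bone and cartilage were lower in 6 of 8 tested cases and higher in 2 (of 16 symbols). Of all tested genes, 49.3% were lower and 50.5% higher. Cbfb, the partner subunit of the RUNX factors, fell from 1159 ± 39.4 to 760.0 ± 1.69 (SD, n = 3), Sox5 to 0.667 and Snai2 to 0.799. Atf4, a stress-response factor that also acts in osteoblasts, rose 1.29-fold. The log2 fold changes of Atf4 and Sox5 went from 0.36 to 0.14 and from -0.59 to -0.28 with the trend removed. Mef2c (-0.32 to -5.46e-04) and Msx1 (0.54 to 0.31) lost their calls on that removal (adjusted p = 0.996 and 0.143), which left 1 higher and 5 lower. Runx2, Sox9 and Msx2 were not analysed here.

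Bone and cartilage matrix genes were lower in 6 of 8 tested cases and higher in 2 (of 19 symbols). The shares over all tested genes were 49.3% and 50.5%. Ogn fell to 0.281, Sparc from 145021 ± 1146 to 123530 ± 1544 (SD, n = 3) and Col1a1 to 0.855, while the cartilage collagen gene Col2a1 rose from 405.5 ± 4.21 to 787.4 ± 27.3. With the trend removed the log2 fold change of Col1a1 went from -0.23 to -0.04 and that of Sparc from -0.23 to -0.38, and the list held 3 higher and 4 lower, with Postn and Col1a2 turning from lower to higher (to 0.12 and 0.10). The small rise of Bgn, 1.07-fold, turned to -0.02 with listed totals. In the RANK and Wnt list (7 of 16 tested) Wnt5a was higher and 6 were lower, beside 50.5% and 49.3% of all tested genes. The secreted Wnt modulators Dkk3 and Sfrp1 fell to 0.50 and 0.545, beta-catenin Ctnnb1 to 0.786 and the co-receptor Lrp5 to 0.714, the last with a log2 fold change of -0.49 that was -0.25 with the trend removed. Lrp6, among the 6, went from -0.27 to 0.05 on that removal and lost its call (adjusted p = 0.332).

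Vesicles shed by smooth muscle cells can seed mineral. All 9 genes of the vesicle list were tested, 5 higher and 4 lower, beside 50.5% and 49.3% of all tested genes. Smpd3, the neutral sphingomyelinase involved in vesicle release, rose from 2240 ± 72.1 to 4293 ± 171.4 (SD, n = 3). Anxa6 rose 1.39-fold, Anxa5 1.37-fold, Anxa2 1.24-fold and the tetraspanin gene Cd63 1.30-fold, whereas Anxa1, Cd81, Sort1 and Cd9 were lower. Sort1 lost its call with the trend removed (-0.12, adjusted p = 0.201), which left 3 lower. The log2 fold changes of Anxa5 and Anxa2 went from 0.45 to 0.23 and from 0.31 to 0.16 with the trend removed. Of the mineral hormone receptor genes, Fgfr1 and Fgfr3 were tested (of 6 symbols) and were lower, at 0.844 and 0.520 of Control. That of Fgfr1 went from -0.24 to -0.12 on the log2 scale with the trend removed.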

How the data were processed

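The authors deposited, per sample, a signal for each of 7384 genes, called normalised read counts here; at the step found for each library, 100% of the values were whole reads (within 0.05 reads) divided by 1 factor. Per the submitters' processing notes, HISAT2, HTSeq, Trimmomatic and Cufflinks were used with mm10, without versions or roles; the labels do not say how the factor or the gene selection was obtained. The 7179 genes that reached 10 in 3 or more libraries were compared with limma 3.58.1 in R 4.3.3 (trend, robust, 2-sided, no other term) on log2(value + 1), which understates the change of low genes, with Benjamini-Hochberg adjustment over all tested genes at 0.05. GENCODE vM21 (GRCm38) supplied positions, lengths and GC content and held 7331 of the identifiers; the length and GC trend was fitted per library by splines. Count tests (edgeR 4.0.16, DESeq2 1.42.0) ran on the reads recovered for 5 libraries, without siSirt6 replicate 1, for which an automatic check of the unit did not accept its step. Replicates differed beyond counting noise (chi-square per degree of freedom 1.94 to 2.49), so none was taken as a duplicate. The genes named are the regulators, Sirt6, the 4 tested genes with the smallest p of each pathway list and the 3 nearest profiles per regulator; other genes were named after their values were seen, and some results are not reported here. The members and lists were chosen with earlier results of these data known. The whole library depth is unknown.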

Additional observations from a re-analysis of the deposited data

How the results depend on the processing

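The calls and directions of Mgp, Spp1, Slc20a1 and Enpp1 held in all 18 alternatives, with log2 fold changes from 0.08 to 0.50, 0.19 to 0.41, 0.36 to 0.51 and 0.94 to 1.35. Listed totals moved the median of all genes by -0.12 and ended the calls of Slc20a2 (0.0555) and Ahsg (0.12); the cause was not tested. With the length and GC trend removed, with or without the replicate block, Ahsg (-0.0402), Id3 (-0.0839) and Poldip2 (-0.0543) reversed. Samples with the same replicate number did not deviate together (r = -0.0195, 0.0268 and -7.93e-04 across genes), and not every sample correlated best with its own number; with the replicate block alone 3629 genes were higher and 3540 lower, against 3624 and 3542, and Enpp1 stayed at 1.05. Without 1 library, 3491 to 3577 genes were higher and 3410 to 3473 lower, and Ahsg ranged from 0.20 to 0.31. The length and GC trend, removed, left 2663 higher and 2624 lower. Only reads of listed genes are known, so what whole-library depth limits was not tested.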

Other observations

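A pair of bone-related genes was listed below the filter of the main test. Bglap2, an osteocalcin gene, stood at 23.4, 12.7 and 9.66 in the Control libraries and at 3.96, 0 and 0 in the siSirt6 libraries, and near-identical osteocalcin copies could share its reads. Scaled to listed totals it reached the filter, through the Control libraries only. Dlx3, a homeobox gene of skeletal development, stood at 1.95, 5.84 and 5.79 in Control and at 0, 0 and 1.04 in siSirt6. No fold is given for either.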
